A study of Mus musculus with 6 samples.

Results

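The 500 widest open domains called in every library of splenic immature B cells are described here. Peaks of accessible chromatin from 6 libraries were merged into 70174 union regions, of which 30954 (44.1%) held at least 1 bp of a peak in all 6 libraries. Ranked by merged width, the 500 widest of these were taken, which is 0.713% of all regions and 1.62% of the shared ones. They were chosen by merged width alone, so width is described and not tested against other regions. The last domain inside the limit, in the body of Scn3a, was 2213 bases wide, and the first region outside it, at an end of Lsm14a, was also 2213 bases wide. The 4 domains before Scn3a lay at Zfp62, 20762 bases from Ktn1, at Wtap, and at Ier3 and Flot1, with widths of 2213 or 2214 bases. The 4 regions after Lsm14a were 2212 or 2211 bases wide and included one in the body of Gas7 and one at an end of Sh3kbp1. The limit therefore falls on a continuous scale of width.

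The assay was ATAC-seq, in which the Tn5 transposase inserts sequencing adapters into open DNA. The cells were B220+CD93+ immature B cells from the spleen of Tcrd-GDL mice, whose γδ T cells express the receptor for diphtheria toxin and can be depleted with it. The 3 untreated libraries and the 3 diphtheria toxin (DTx) libraries are all of this strain, and the DTx mice were injected intraperitoneally 2 times, 48 h apart, with 15 ng of toxin for each gram of weight and analysed on day 8 from the first dose. The design does not separate loss of γδ T cells from other effects of the toxin, and no age of the mice is given in the labels. The labels do not state whether each library is from its own mouse, so the p-values reflect only how these samples vary, and that may be technical.

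In most cell types a promoter is open over a short stretch around its start site, where nucleosomes are displaced and general transcription factors bind. Wider openings form where many factors bind side by side, as at long CpG islands, at clustered enhancers of genes tied to a cell's identity, and at genes read at a very high rate such as those for ribosomal and transfer RNA. Immature B cells that reach the spleen depend on transcription factors such as Foxo1 and Foxp1, on homing receptors, and on the class II pathway that presents antigen to T cells.

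Of the promoters within the domains, 6 are shown because they include CpG-rich and CpG-poor ones at genes described below. Each runs from 250 bases before to 50 bases after a start site, 5′ to 3′ along the gene, from RefSeq on GRCm38.p6. In the first 4, capitals mark the GC box GGGCGG on either strand, overlapping matches run together, the core of the Sp/KLF factors' binding site. In the last 2, capitals mark CCAAT on either strand, the core of the NF-Y site.
Stk17b promoter, chr1:53785166-53785465, minus strand: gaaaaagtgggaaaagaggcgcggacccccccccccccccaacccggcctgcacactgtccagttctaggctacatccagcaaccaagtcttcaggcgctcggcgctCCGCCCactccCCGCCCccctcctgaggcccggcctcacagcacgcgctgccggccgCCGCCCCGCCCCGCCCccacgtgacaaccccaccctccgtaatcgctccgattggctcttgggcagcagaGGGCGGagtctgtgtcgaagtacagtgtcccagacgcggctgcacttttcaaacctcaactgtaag
Foxo1 promoter, chr3:52268087-52268386, plus strand: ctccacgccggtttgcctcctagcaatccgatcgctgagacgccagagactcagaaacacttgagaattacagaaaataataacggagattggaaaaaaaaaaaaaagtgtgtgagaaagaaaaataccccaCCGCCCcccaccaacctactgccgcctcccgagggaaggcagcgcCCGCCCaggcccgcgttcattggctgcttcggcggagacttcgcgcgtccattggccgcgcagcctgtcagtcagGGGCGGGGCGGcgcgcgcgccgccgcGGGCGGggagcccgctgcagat
Klf4 promoter, chr4:55532426-55532725, minus strand: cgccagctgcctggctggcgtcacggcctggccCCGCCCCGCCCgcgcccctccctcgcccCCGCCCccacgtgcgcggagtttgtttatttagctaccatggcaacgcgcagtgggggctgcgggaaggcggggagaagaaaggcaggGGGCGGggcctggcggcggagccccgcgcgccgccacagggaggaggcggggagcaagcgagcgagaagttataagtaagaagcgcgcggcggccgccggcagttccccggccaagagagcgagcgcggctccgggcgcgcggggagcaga
Rel promoter, chr11:23770920-23771219, minus strand: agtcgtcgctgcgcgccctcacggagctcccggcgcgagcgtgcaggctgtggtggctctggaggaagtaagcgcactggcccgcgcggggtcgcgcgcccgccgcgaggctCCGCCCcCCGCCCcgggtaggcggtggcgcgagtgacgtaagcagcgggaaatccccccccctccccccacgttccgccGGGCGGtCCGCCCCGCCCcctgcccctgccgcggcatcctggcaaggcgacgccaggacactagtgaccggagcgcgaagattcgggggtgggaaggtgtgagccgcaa
H2-Aa promoter, chr17:34287774-34288073, minus strand: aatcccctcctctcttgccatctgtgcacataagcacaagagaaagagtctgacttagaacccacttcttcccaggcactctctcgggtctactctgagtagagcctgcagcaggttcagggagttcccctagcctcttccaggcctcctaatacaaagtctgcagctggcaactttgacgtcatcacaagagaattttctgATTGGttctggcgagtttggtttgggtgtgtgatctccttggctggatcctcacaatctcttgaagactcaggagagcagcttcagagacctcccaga
H2-Eb1 promoter, chr17:34305617-34305916, plus strand: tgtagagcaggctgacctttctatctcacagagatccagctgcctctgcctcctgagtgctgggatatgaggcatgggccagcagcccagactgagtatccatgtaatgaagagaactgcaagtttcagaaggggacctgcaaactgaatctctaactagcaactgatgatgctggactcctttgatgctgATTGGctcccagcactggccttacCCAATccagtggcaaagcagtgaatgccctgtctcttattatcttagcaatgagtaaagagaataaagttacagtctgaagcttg
Stk17b encodes a kinase of the death-associated family, and its promoter held 6 GC boxes and 24 CpG, overlapping matches counted. The promoter of Foxo1, a transcription factor needed for B cell development, held 5 GC boxes and 31 CpG. Klf4, which encodes a factor that restrains division of naive lymphocytes, had 4 GC boxes and 40 CpG, and Rel, which encodes the NF-κB subunit c-Rel, had 5 and 42. H2-Aa and H2-Eb1 encode chains of the class II molecules I-A and I-E. Their promoters held only 3 and 0 CpG, with 1 and 2 CCAAT boxes.

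Across all 405 promoters of the table that overlap a domain, the median was 24 CpG and 64.7% G or C, against 22 and 61.7% in the 11278 promoters at other shared regions and 7 and 52.7% in all 32851. At the 500 shared regions next in merged width, 370 promoters had medians of 24.5 CpG and 63.7% G or C. The GC box was in 69.1% of the domain promoters, 66.7% of those at other shared regions and 35.7% of all. CCAAT was found in 28.9%, 38.9% and 37.4%, and the ETS core CCGGAAG in 12.1%, 20.2% and 8.86%. The CRE core TGACGT was in 14.6%, 12.8% and 7.51%, and the octamer ATTTGCAT in 2.72%, 1.45% and 1.74%. AP-1 (TGANTCA) came to 3.7%, 4.27% and 7.81% and TATAAA to 7.9%, 6.11% and 13.6%. Both strands were searched, the shares are descriptions of letters within these windows, and neighbouring start sites share sequence. By GC box and CpG the domain promoters resembled those of other open regions, with fewer ETS and CCAAT cores.

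Shared by all libraries is true of the domains only in the sense of the rule. Merged widths ran from 2213 to 5630 bases with a median of 2479, against 882 in the other 30454 shared regions. Only 43.0% of the domains' 1300289 bases were under a peak in all 6 libraries, where the other shared regions had 53.6%. The 500 shared regions next in merged width had 46.3%. The median domain had 42.1% of its bases called in all 6. This share was over 80% in 28 domains and under 10% in 25, and 4 domains had no base called in all 6 libraries. Those 4 lay at an end of Ckap4, in Dop1b, 19285 bases from Arl14 and 10643 bases from Zfp982, named after their values were seen. A single unbroken peak in every library was found in 81 domains (16.2%), against 92.1% of the other shared regions, although 401 (80.2%) had 1 peak spanning over 90% of the domain in at least 1 library. Of the 500 shared regions next in merged width, 158 (31.6%) had a single unbroken peak in every library. In 497 domains at least 1 library had a single unbroken peak.

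**Figure D1:**
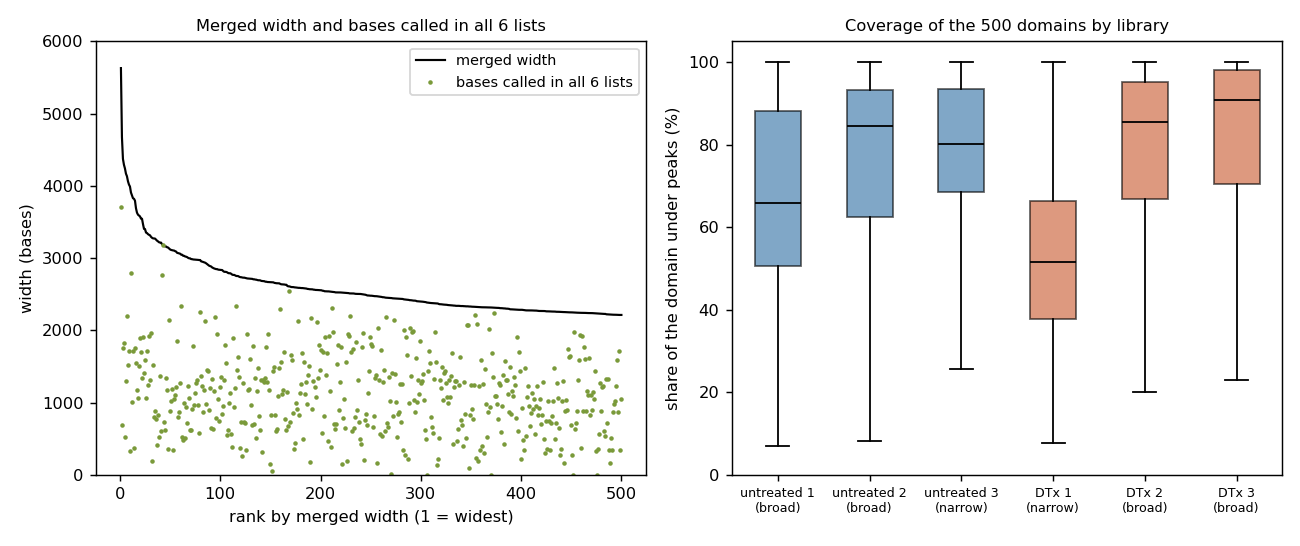
Left, merged width (line) and bases called in all 6 lists (points) of the 500 domains by rank. Right, share of each domain under peaks by library in percent, with the box at the quartiles, the line at the median and whiskers from lowest to highest; the list mode is in brackets, and DTx 1 has the lowest median.

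Peak lists came in 2 layouts, which bears on every value per library. Untreated 3 and DTx 1 had the layout of MACS2's narrow mode and the other 4 that of its broad mode, so each group held 2 broad lists and 1 narrow list. The lists held 36760, 42504 and 56503 peaks in untreated 1 to 3 and 44661, 56266 and 60811 in DTx 1 to 3. Read totals are not given, so depth is unknown. As a check of the sorted cells, 8 of 10 B cell markers had a gene end in a shared region, against 0 of 10 γδ T and innate lymphoid, 3 of 14 T cell, 3 of 12 myeloid, 2 of 8 dendritic, 0 of 8 erythroid and 0 of 9 stromal markers. Of all protein-coding genes, 44.5% had an end in a shared region. No marker of any of these 7 lists, B cells included, had an end in one of the 500 domains, where 1.45% of all protein-coding genes had one. The lists are short, so finding none is close to that share. How far other cells add to single domains was not tested.

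DTx 1 covered the least of the domains. Peaks covered 863928, 1000723 and 1021324 of their bases in untreated 1, 2 and 3, which is 66.4%, 77.0% and 78.5%. In DTx 1, 2 and 3 they covered 673772, 1026849 and 1071517 bases, or 51.8%, 79.0% and 82.4%. The group means were 961992 ± 85548 untreated and 924046 ± 217891 DTx (SD, n = 3 each; exact two-sided permutation p = 1, Benjamini-Hochberg adjusted p = 1 over 4 measures). Among broad lists DTx was higher by 116858 bases on average, and among narrow lists the difference was -347552. The smallest p that 3 against 3 can give is 0.1, so this test cannot pass 0.05.

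Narrow lists cut the same domains into more pieces. Untreated 1 and 2 had 1.24 and 1.15 peaks per domain and untreated 3 had 1.72. DTx 1 had 1.77, and DTx 2 and 3 had 1.31 and 1.36. The group means of 1.37 ± 0.303 and 1.48 ± 0.255 did not differ beyond their spread (SD, n = 3 each; exact permutation p = 0.5, adjusted 0.667). Domains under 1 unbroken peak numbered 382, 425 and 212 in untreated 1 to 3 and 176, 355 and 341 in DTx 1 to 3. The 500 domains took 3.88%, 3.78% and 2.86% of all called bases in the untreated libraries and 2.81%, 3.13% and 3.03% in the DTx libraries. Those means were 3.51 ± 0.567% and 2.99 ± 0.163% (SD, n = 3 each; exact permutation p = 0.3, adjusted 0.667), with untreated 3 overlapping the DTx values. Within broad lists the difference was -0.754 percentage points and within narrow lists -0.0431. Each library's own 500 widest regions held between 185 (37.0%, DTx 1) and 332 (66.4%, DTx 3) of the domains, and 102 domains were among them in all 6.

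Peaks in the domains ranged from weak to strong. Strength was read as the within-list percentile of the highest −log10 q of a peak in the domain, the authors' value from MACS2, since −log10 q itself is on another scale in each list. Its median over the domains was 9.21, 14.0 and 119 in untreated 1 to 3 and 60.5, 19.6 and 24.5 in DTx 1 to 3, highest in the narrow lists. As percentiles the medians were 58.7, 62.1 and 77.4 untreated and 70.8, 70.6 and 71.6 DTx. The other shared regions had 57.5, 63 and 72.2, and 64.6, 71.7 and 73.9. Across the 500 domains of a library, Spearman's rho between covered bases and percentile was 0.0807, 0.115 and 0.205 in untreated 1 to 3 and 0.352, 0.0186 and 0.0204 in DTx 1 to 3, highest in the narrow lists; both values come from the same peaks. The domains spanned nearly the whole range of strength. Between 15.2% (untreated 3) and 39.0% (untreated 1) of them lay below the middle of their list, and between 6.4% (untreated 2) and 19.6% (untreated 3) in its top 10%. Group means of the median percentile were 66.1 ± 9.94 and 71 ± 0.487 (SD, n = 3 each; exact permutation p = 0.4, adjusted 0.667). DTx was higher by 10.7 within broad lists, and within narrow lists the difference was -6.56. Fold enrichment, also the authors' value, had a lower median in the domains than in other shared regions in all 6 lists, 3.87, 3.92, 8.37, 7.96, 3.94 and 3.73 against 5.15, 5.71, 12.6, 11.4, 5.85 and 5.78 in the order untreated 1 to 3, DTx 1 to 3. Percentile and fold were each the highest over the peaks of a domain or region. By library there were 1.15 to 1.77 peaks per domain and 1 to 1.05 per other shared region. How far the width or number of peaks sets these values was not tested.

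**Figure D2:**
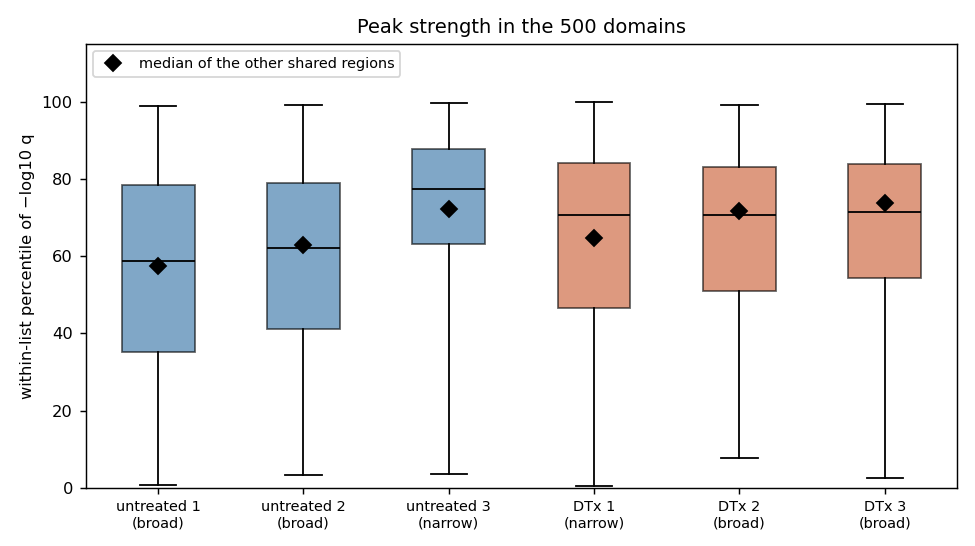
Within-list percentile of −log10 q in the 500 domains by library, with boxes at the quartiles, whiskers from lowest to highest, and diamonds at the median of the other shared regions. The whiskers span most of the scale in every library, and the diamonds lie close to the domain medians.

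The domain with the highest lowest percentile over the 6 lists lay 11436 bases from Gm4832 (chr17:88111793-88114076), with percentiles of 98.6, 99.3 and 99.8 untreated and 99.9, 99.2 and 99.5 DTx. It was followed by domains at Mynn, a zinc finger gene, at 97.7 or above in every list, and at Zfp367, another zinc finger gene, at 95.6 or above. The next lay 45880 bases from Foxo1, at 93.6 or above, and 10861 bases from Gm41408, at 93.5 or above. At the other extreme were wide openings with peaks barely above the threshold in at least 1 list. The domain 10643 bases from Zfp982 fell to percentile 0.334 in DTx 1 and reached 14.9 at most, in DTx 2. Those at Fnbp1l, Kbtbd11, near Sec31a and at Cdc42bpa had lowest percentiles of 0.658, 0.83, 1.31 and 2.89.

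Gene ends were frequent in the domains, as far as their width goes. At least 1 end of a protein-coding gene lay in 275 domains (55%), 137 (27.4%) lay inside a gene with no end in them, and 88 (17.6%) lay outside protein-coding genes at a median distance of 27196 bases. Among other shared regions 27.7% held a gene end, but per 10 kb of sequence the domains held 2.51 ends and the others 3.32. Of the 500 shared regions next in merged width, 47.4% held a gene end, with 2.76 ends per 10 kb. Exons and introns could not be told apart with the gene table used. Of the ends whose strand is known, 232 were 5′ and 16 were 3′ (93.5% 5′, against 95.8% in other shared regions). The domains held an end of 317 of 21887 protein-coding genes (1.45%) and overlapped 451 (2.06%). They covered 8 genes whole, among them the histone genes H3c1, H2ac20 and H2ac21 and the stress response gene Ier3. By kind of place, the library medians of the percentile ran from 61.1 to 79.8 for domains with a gene end, from 54.7 to 73.6 inside genes and from 55.3 to 74.0 outside.

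Most of the width at a start site lay inside the gene. A start site of known strand was in 266 domains, 59 of them (22.2%) with start sites on both strands. In the other 207, the domain reached a median of 885 bases upstream and 1569 bases downstream, and 141 (68.1%) extended further downstream. In other shared regions these medians were 450 and 573 bases, and 62.4% extended further downstream. The 500 of them next in merged width were closer to the domains. There, 192 had start sites on 1 strand only, with medians of 867 and 1212 bases, and 63% extended further downstream. At the start site itself a peak was called in 86.5%, 90.8% and 94.7% of the 207 domains in untreated 1 to 3 and in 74.9%, 92.3% and 93.7% in DTx 1 to 3. At 500 bases into the gene DTx 1 had fallen to 38.2%, while the other 5 libraries held 72.9% to 83.1%. At 1000 bases into the gene it had 36.7% and the others 48.8% to 65.2%, and at 1000 bases upstream 21.7% against 26.6% to 37.7%. Untreated 3, the other narrow list, lay with the broad lists at each of these positions.

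**Figure D3:**
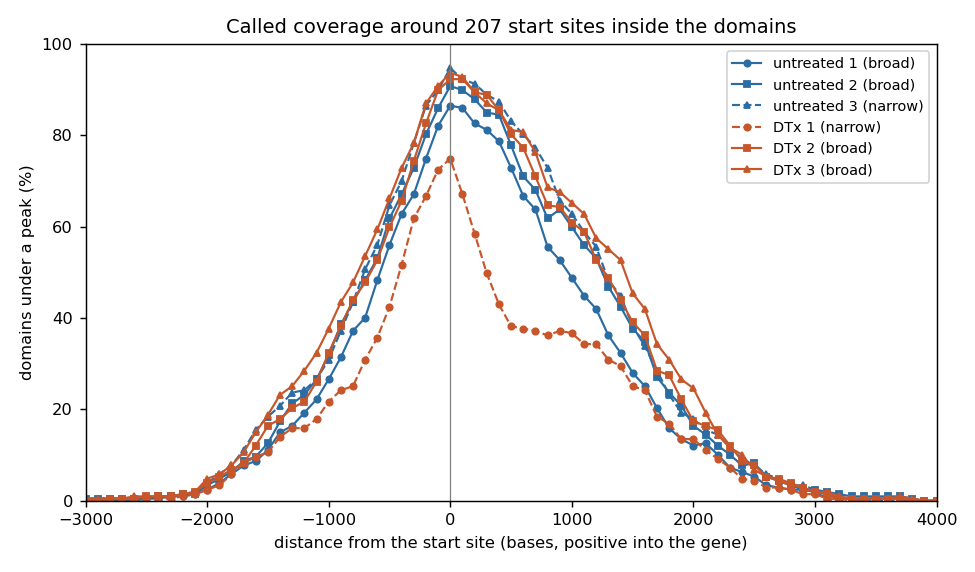
Share of 207 domains under a peak, in percent, by distance from the start site in bases (positive into the gene), 1 line per library, broad lists solid and narrow lists dashed. DTx 1 drops to 38.2% at 500 bases into the gene, where the other 5 lie between 72.9% and 83.1%.

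The widest domain of all, at chr17:39843112-39848741, spanned 5630 bases over Rn18s-rs5 and AY036118, copies related to the repeated ribosomal RNA genes. Peaks covered 4716, 5572 and 4756 of its bases in untreated 1 to 3 and 3951, 4828 and 5626 in DTx 1 to 3. Its percentile ran from 35.6 in untreated 1 to 78.5 in untreated 3. The second, 4675 bases at Ubtf, which encodes a factor of RNA polymerase I, was 2778, 2356 and 4025 bases in the untreated and 698, 3144 and 3289 in the DTx libraries, with percentiles of 24.2 to 47.6. Sequence that is repeated in the genome can gather reads from all its copies, and no mask of repeats was applied here. Whether the authors applied one is not given in the labels, and the part of repeats in these widths was not tested. Domains starting within the first 3200000 bases of a chromosome, beside the unassembled centromere, numbered 7, of 32 such shared regions. They include 3 domains in Sfi1, a centrosome gene, of 4292, 3545 and 2473 bases, and a 4133-base domain over the pseudogene Pisd-ps2.

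The other domains among the 20 widest lay at or in named genes. Ranks 3 and 13, of 4373 and 3829 bases, both belong to Cd74, and the second reaches an end of Tcof1, a factor of ribosomal RNA synthesis. Foxn3, a forkhead gene, followed with 4241 bases at rank 5, Stk17b with 4169 bases at rank 6 and Zfp710 with 3991 bases at rank 10. The domain at Nipbl, which encodes the loader of cohesin, had 3908 bases and reached an end of LOC102634078. It was among the steadiest of the 20 widest, with 3767, 3776 and 3792 bases covered in the untreated and 2815, 3833 and 3908 in the DTx libraries. Slc16a6 and Arsg shared a domain of 3868 bases, and Il3ra, the interleukin 3 receptor α chain, held one of 3821 bases. Rbpms, an RNA-binding protein gene, had 3795 bases, and Cdk6, a kinase of the G1 phase, 3690. Bhlhe40, a transcription factor gene, had 3601 bases, Ap3m2, a gene of the AP-3 adaptor, 3588, and Kctd12 3577. Libraries did not see the Stk17b domain alike: 1300, 3899 and 1819 bases were covered in untreated 1 to 3 and 2529, 3283 and 2340 in DTx 1 to 3.

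Genes for transfer RNA and small nuclear RNA, which are short and read at high rates, lay in clusters under some domains. The domains held 31 tRNA genes in 11 domains (2.2%, against 0.401% of all shared regions), or 23.8 per Mb against 6.23. They held 6 snRNA genes in 3 domains (0.6% against 0.132%). No snoRNA gene was in a domain, and 5 domains held a miRNA gene. Rank 8 (chr3:96485806-96489869, 4064 bases) held 2 snRNA genes, and its percentile was 81.5 or above in every list. Rank 9 (chr19:12009582-12013599, 4018 bases) held 5 tRNA genes, read for lysine, leucine, arginine and valine by their names. It was covered over 1742, 1814 and 2201 bases in untreated 1 to 3 and 1782, 3899 and 3064 in DTx 1 to 3. Rank 17, between Hes7 and Aloxe3, held 4 tRNA genes over 3629 bases. Over the 14 domains with a tRNA or snRNA gene, the median percentile was 79.5, 81.5 and 86.9 in untreated 1 to 3 and 81.2, 84.0 and 84.7 in DTx 1 to 3, above the median of all domains in each list. For the 11 domains with a tRNA gene alone, the medians were 60.1, 76.8 and 82.7 untreated and 75.8, 79.9 and 82.6 DTx, where all domains had 58.7, 62.1, 77.4, 70.8, 70.6 and 71.6. Over the 14, the bases called in all 6 libraries had a median of 58.2%, where all domains had 42.1%.

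Among gene lists compared with the share of 1.45% over all genes, those of homing and of antigen presentation had the highest shares with an end in a domain. Quiescence and homing genes had 4 of 14 (28.6%), antigen presentation 4 of 16 (25%), immediate early and AP-1 genes 3 of 16 (18.8%), and B lineage transcription factors 3 of 20 (15.0%). NF-κB subunits and inhibitors had 2 of 14 (14.3%), replication-dependent histone genes 6 of 62 (9.68%) and chromatin regulators 1 of 20 (5.0%). B cell receptor signalling had 0 of 20, housekeeping genes 0 of 16 and cell cycle genes 0 of 16. Receptor signalling and housekeeping genes were open all the same, with an end in a shared region for 15 of 20 and 14 of 16, against 44.5% of all genes. The lists with the highest shares were also open more often than all genes. Such an end was found for 14 of 14 quiescence and homing genes. It was found for 14 of 16 antigen presentation genes and 14 of 16 immediate early and AP-1 genes. The 1.45% counts genes open or not: the 317 genes with an end in a domain are among 9730 with an end in a shared region. The lists hold few genes, some members share a domain, and the counts are descriptions.

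**Figure D4:**
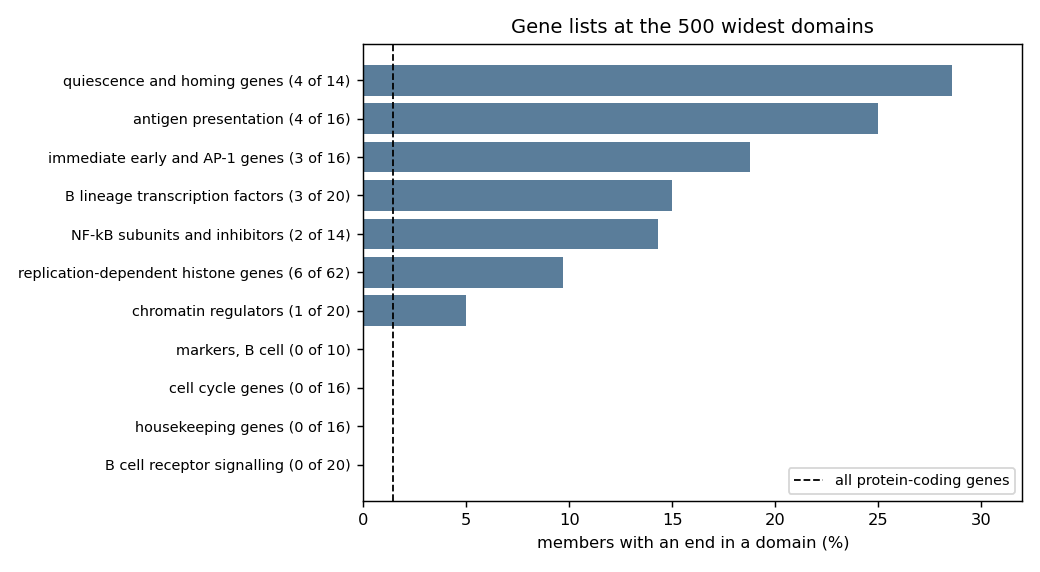
Share of each gene list's members with an end in one of the 500 domains, in percent, with the counts in brackets; the dashed line is the 1.45% of all protein-coding genes. Homing and antigen presentation genes have the longest bars, and 4 of the lists drawn, B cell markers included, have no member.

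Among class II genes, Cd74, H2-Aa and H2-Eb1 held domains. Cd74 encodes the invariant chain that guides class II molecules to the endosome. Its wider domain covered 2050, 3506 and 2460 bases in untreated 1 to 3 and 2126, 3463 and 4355 in DTx 1 to 3, and stood at percentile 90.6 or above in every list. The narrower one, at the gene's other side and reaching Tcof1, lay between percentiles 12.1 and 60.3, so a pair of domains in one gene differed widely in strength. At H2-Aa the covered bases were 1463, 2374 and 2596 untreated and 1586, 2345 and 3096 DTx, with percentiles of 80.4 to 97.1. The H2-Eb1 domain, 2312 bases wide, was covered over 1916, 1972 and 1997 bases in the untreated libraries and over 1210, 1986 and 2014 in the DTx libraries, with percentiles of 87.8 to 94.5. These are the 2 promoters shown above with almost no CpG. Tap1, a subunit of the peptide transporter of the class I pathway, shared a 2253-base domain with the immunoproteasome gene Psmb8. For all 5 of these domains the groups overlapped.

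Homing and quiescence genes had wide domains that differed in strength. S1pr1 encodes the sphingosine 1-phosphate receptor that lets lymphocytes leave tissues. Its domain of 3546 bases was covered over 2725, 3142 and 2622 bases in untreated 1 to 3 and 2212, 3161 and 3546 in DTx 1 to 3, at percentiles of 43.7 to 79.3. Klf4 had 913, 1298 and 2395 bases untreated and 939, 2002 and 1526 DTx, at percentiles of 78.3 to 86.3. Btg2, an antiproliferative gene, had 811, 966 and 2142 untreated and 975, 1224 and 1559 DTx, at percentiles of 83.4 to 93.1. In none of these 3 did the groups separate.

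B lineage transcription factors were met at their ends and also inside the gene. Beside the ends of Irf4, Foxo1 and Foxp1, the bodies of Tcf4, Mef2c, Runx1 and Lef1 held a domain, so that 7 of 20 (35%) overlapped one, against 2.06% of all genes. Long genes have more room for this, and no length was taken into account. At Irf4, which directs plasma cell and light chain programmes, 1171, 1812 and 2170 bases were covered in untreated 1 to 3 and 1018, 2300 and 2495 in DTx 1 to 3. At Foxo1 it was 1554, 1203 and 2045 bases untreated and 831, 2035 and 1380 DTx. Foxp1, a factor for the B cell transition in the bone marrow, was 1 of 2 genes with 3 domains, of 3120, 2863 and 2307 bases, the other being Sfi1, and 12 further genes had 2. The Foxp1 domain at the gene's end was the weakest of its 3 in 5 of the 6 lists, at percentiles of 14.2 to 50. Mef2c had the steadiest of these domains, with 2700, 2690 and 2753 bases untreated and 2350, 2539 and 2761 DTx.

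Jun, Fos and Jund encode subunits of AP-1, which forms soon after stimulation. The Jun domain, at percentile 91.1 or above in every list, was under 1 peak in each library, over 1765, 1824 and 2239 bases untreated and 1775, 2295 and 1849 DTx. Fos stood at percentile 85.3 or above, and its covered bases ran from 644 in DTx 1 to 2488 in DTx 3. The Jund domain had percentiles of 84.0 to 94.1. Among NF-κB genes, Rel, Traf3 and, in its body, Nfkbiz held a domain. Traf3, which encodes an adaptor that restrains the non-canonical pathway, had 2096, 2201 and 2613 bases untreated and 868, 2575 and 2532 DTx. Chromatin regulators gave Bcor, a Polycomb-linked corepressor gene, with 67.4% of its 2409 bases called in all 6 libraries, and the body of Kdm6b, a histone H3 lysine demethylase gene, with 39.7% of 3315.

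Replication-dependent histone genes are short and clustered, and a domain can hold several. Rank 249 held ends of H2ac20, H2ac21 and H2bc21, the most gene ends of any domain with 5, and rank 49 held ends of H1f1, H3c1 and H4c1, with 4. Another 4 domains, at Cnot6l, Zfand5, Limd2, and Flot1 with Ier3, held 3 each, together with RefSeq gene models at the first 3. The rank 249 domain was covered over 2311, 2236 and 2458 bases in untreated 1 to 3 and 1930, 2276 and 2341 in DTx 1 to 3. At rank 49 the values were 2854, 2926 and 2429 untreated and 2164, 2367 and 2208 DTx, so every DTx library lay below every untreated one.

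**Figure D5:**
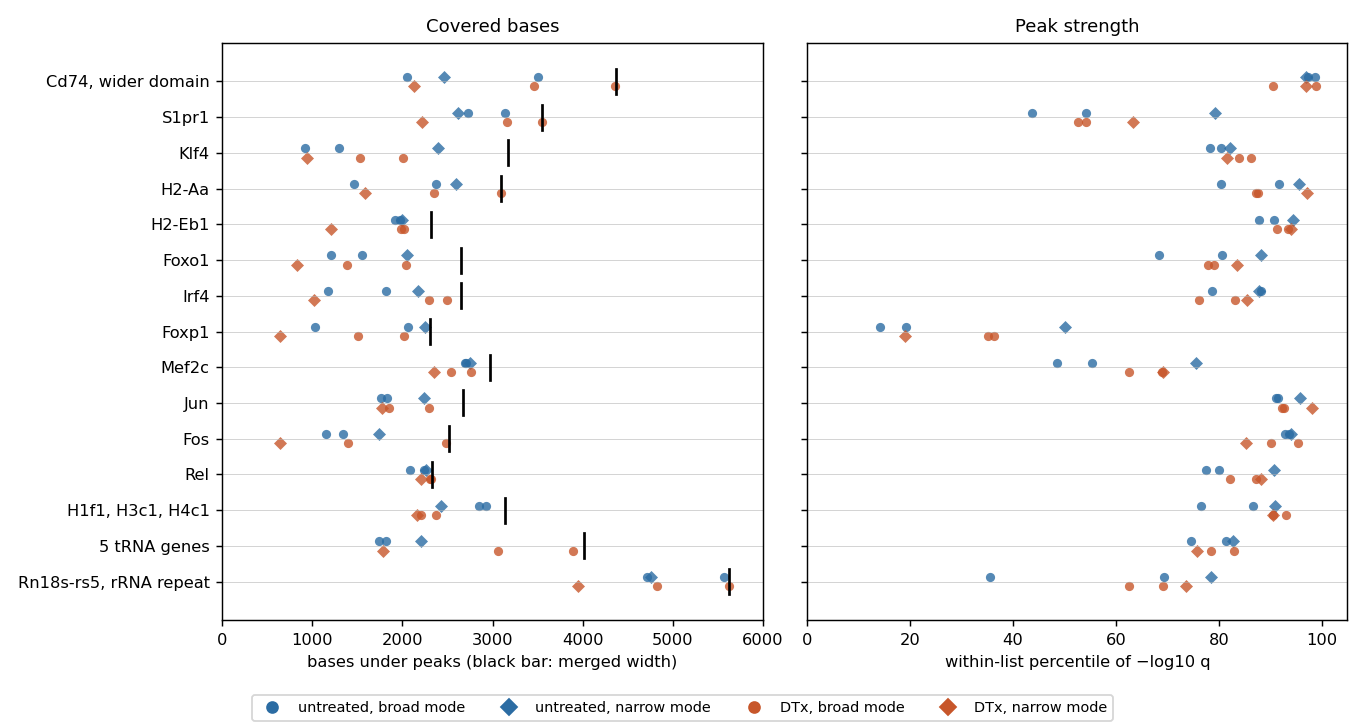
Bases under peaks (left, black bar at the merged width) and within-list percentile of −log10 q (right) in 15 domains, 1 point per library, untreated in blue above DTx in orange, circles for broad and diamonds for narrow lists. In covered bases, groups overlap in all but the histone domain, and Rel and Mef2c have the tightest points.

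A small set of domains had nearly the same borders in every library. The domain at chr14:19415720-19418902, 114798 bases from Gm2244, was covered over 3179 to 3183 bases in all 6 and had 99.8% of its bases called in each of them. One 28348 bases from Lyn had 97.8%, one in Crlf2, a cytokine receptor gene, 96.8%, and one at Tagln2, an actin-binding protein gene, 95.0%. Rel, with 2086, 2240 and 2256 bases untreated and 2207, 2309 and 2316 DTx, had 89.8%, and the body of Nfkbiz, which encodes the nuclear inhibitor IκBζ, had 87.5%. Constant borders did not require a strong peak: Tagln2 lay between percentiles 26.1 and 58.4, and Crlf2 at 86.0 or above. The genes in this group, Rel aside, were picked with their values in view. No mask of repeats was applied, and the part of repeats in these borders was not tested.

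No domain was called different in covered width between untreated and DTx mice. The fit ran over all 30954 shared regions (limma on log2 covered bases, with the list mode as a term). At a Benjamini-Hochberg adjusted p of 0.05, limma called 0 regions higher and 0 lower in DTx, a background of 0%, and the smallest adjusted p was 1. At an unadjusted p under 0.05 it had 578 regions (1.87%) and 33 domains (6.6%). Of the 33, 28 were lower in DTx, beside 0.801% of all regions, and 5 were higher, beside 1.07%. The log2 difference, DTx minus untreated, had a median of -0.08 over the domains and 0.03 over all regions. Its standard error in the domains had a median of 0.25 and reached 1.2, so a change in width could go uncalled. The difference was negative in 326 domains and positive in 174. This lean rested on the pair of narrow lists. Without DTx 1 the medians were 0.14 and 0.21. At an unadjusted p under 0.05 limma then had 77 domains (15.4%), 56 of them higher in DTx. Over all regions it had 3513 (11.3%), 3292 of them higher. Without untreated 3 the medians were the same, with 82 domains (16.4%), 61 of them higher. All regions then gave 3520 (11.4%), 3297 of them higher. Either step leaves only the broad lists to compare the groups, and the domains' median stayed below that of all regions.

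In covered bases, every DTx library lay below every untreated library in 21 domains (4.2%, against 1.37% of all shared regions), and above in 6 (1.2%, against 2.75%). The histone domain with H1f1, H3c1 and H4c1 was among the 21, with a log2 difference of -0.28 ± 0.11 (SE, limma, unadjusted p = 0.0439, adjusted p = 1). A domain at Ccdc106 and U2af2, a splicing factor gene, was covered over 2499, 2956 and 2240 bases in untreated 1 to 3 and over 1800, 1805 and 1812 in DTx 1 to 3. Klf16, a Sp/KLF family gene, had 2649, 2592 and 2681 bases untreated and 1484, 1887 and 1922 DTx. In most of the 21, DTx 1 was the lowest, and it was also the lowest over the domains as a whole. Among the 6 above, Ifi203, an interferon-inducible gene, had 1554, 1560 and 1255 bases untreated and 2089, 2169 and 2187 DTx, a log2 difference of 0.57 ± 0.12 (SE, limma, unadjusted p = 0.00307, adjusted p = 1). The domain at Mynn had 1835, 2014 and 1623 bases untreated and 2016, 2110 and 2300 DTx. The rank 22 domain in Sfi1 had 1502, 2244 and 2088 untreated and 3117, 3469 and 2669 DTx. Ccdc106, U2af2, Klf16 and Ifi203 were named after their values were seen, and none of these differences passed the adjustment.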

How the data were processed

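ATAC-seq of 3 untreated and 3 DTx libraries was analysed from the authors' separate peak calls for each library. Per the submitters' processing notes, Trim Galore 0.4.3, Bowtie2 2.3.2, MACS2 2.1.1 and the build mm10 were used. The sources used here do not give duplicate removal, the Tn5 shift or the calling mode. Per the file headers, each deposited peak has a position, a length in bases, a pileup (coverage signal) and a fold enrichment (ratio). Its −log10 p-value and −log10 q-value stand in deposited columns with damaged headers, and were identified by order and values. Pileup and p were not used.

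Peaks of the 19 autosomes and both sex chromosomes were merged, leaving out 2 mitochondrial peaks per list. Covered bases are the bases of a domain under peaks of 1 library, on 1-based coordinates. The percentile is that of the highest −log10 q among all peaks of the list. Genes came from RefSeq's GRCm38.p6 table, the same build as mm10, with 21887 protein-coding genes; it has no strand or exons, and start sites came from RefSeq's promoter table, which matched 17492 of them. Values per library were compared by exact two-sided permutation over 20 relabellings, adjusted over 4 measures. Covered widths were fitted with limma 3.58.1 (R 4.3.3; trend, robust; mode and group) over 30954 regions, on the log2 scale with no pseudocount, Benjamini-Hochberg at 0.05, after a check on simulated data. That check required set changes to be recovered only at a log2 SD of 0.05. It therefore does not show how often a change would be called at the spread of these lists. The rest used Python 3.11.15, NumPy 2.4.6, pandas 2.3.3, SciPy 1.17.1 and Matplotlib 3.10.9. The merged width pools all 6 lists and has no group contrast; domains against other regions were described, not tested. Named genes are those of the 20 widest domains, the 5 with most gene ends, 5 on each side of the limit, 5 of highest and 5 of lowest minimum percentile, and list members in a domain; 1 list member with a domain is counted but not reported here by name. Alternatives were equal-length lists (the 36760 strongest peaks of each library), peaks with −log10 q of at least 5, each mode alone, each library left out, a replicate block, other scalings and filters of the width fit, and domains taken from bases called in all 6 lists. The members and lists were chosen with earlier results of these data known. Read totals are not given, so depth and its precision are unknown.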

Additional observations from a re-analysis of the deposited data

How the results depend on the processing

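Differences are DTx minus untreated. The difference in covered bases (-37946) reversed to 29037 with peaks of −log10 q of at least 5, 116858 in broad lists and 87191 without DTx 1, with leave-one-out values from -111681 to 87191. Peaks per domain (0.112) reversed to -0.00867 in equal-length lists and -0.0343 without DTx 1, with leave-one-out values from -0.0343 to 0.285. The percentile (4.91) reversed to -2.56 in equal-length lists and -6.56 in narrow lists, with leave-one-out values from 1.24 to 10.6. The share of called bases (-0.517 percentage points) kept its sign in all 12 alternatives run, from -0.843 to -0.329 with 1 library left out. Of the 12, the replicate block changes only the p, and the leave-one-out sets share most libraries. In narrow lists, 1 library against 1, the difference in share was -0.0431. No test of these 4 measures passed 0.05 in any setting, which 3 against 3 cannot do. The causes of these reversals were not tested.

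The limma width fit called 0 regions in 11 of 12 alternatives and 11 regions, 3 of them domains and all lower in DTx, in equal-length lists with 200 bases added before the log2, which regions with no peak left require. Adding 200 bases to the deposited lists called 0. Those 3 domains, 8517 bases from Tspan2, at Sptbn1, and at Amigo2 with Pced1b, had no peak left in any DTx list of equal length. In the deposited DTx lists their peaks lay at percentiles of 14.5 to 23.2, 4.54 to 23.2 and 15.0 to 28.3, and their covered widths overlapped the untreated ones. Centring each library moved the median of all regions from 0.03 to 0 and that of the domains from -0.08 to -0.11. Same-numbered libraries correlated in their deviations at 0.15, 0.03 and 0.1, and differently numbered ones at -0.17 to 0.1. Each deviation is from a mean of 3 libraries and still holds the list mode. These values therefore cannot decide whether the numbers pair the libraries, and the main fit did not pair them. With the replicate block limma called 0 regions. At an unadjusted p under 0.05 it had 55 domains (11%) in place of 33 (6.6%). Over all regions it had 1341 (4.33%) in place of 578 (1.87%). The exact sign-flip p of the 4 measures were 1, 0.75, 0.5 and 0.5 (smallest possible 0.25).

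Domains with a gene end numbered 266 to 310 in all 10 alternatives, against 275. Rebuilding the set kept 408 domains (81.6%) from equal-length lists, 365 (73.0%) from peaks of −log10 q of at least 5, and 438 to 497 without 1 library, but 90 (18.0%) when ranked by the longest run of bases called in all 6 lists. By construction that last set gave no value for covered bases or peaks per domain.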

Other observations

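Ranking by bases called in all 6 libraries picks other places. The 500 widest such runs had 1306 to 3177 bases with a median of 1444, and 91 of them lay in 90 of the 500 domains. At these runs 16 of 62 replication-dependent histone genes (25.8%) had an end, among them H4c14, H3c13 and H2bc18, against 6 of 62 in the widest domains and 1.48% of all genes at the runs. Of the housekeeping genes Eef1a1, Hsp90ab1 and Ppia had an end in one (3 of 16, 18.8%), where the widest domains had none. B lineage transcription factors went the other way, with 0 of 20 at the runs and 3 of 20 in the widest domains, and quiescence and homing genes with 0 of 14 and 4 of 14. B cell receptor signalling had 1 of 20 at the runs, Plcg2. The longest runs with a gene end in them lay at Gm20783 (2481 bases), at Ddit3, a stress response factor gene, and Mbd6 (2337 bases), at Tagln2 (2209 bases) and at Mndal, an interferon-inducible gene (2198 bases). One at Fcmr, the IgM receptor gene, had 2066 bases in a region of 2169 bases that ranked 572 by merged width and is not among the domains. These counts compare 2 ways of ranking the same peaks and were not tested.

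Chromosomes differed in the share of their shared regions that were domains, from 0.765% on chromosome 7 to 2.57% on chromosome 18 and 2.44% on chromosome 3, with 0 of 1 on Y. Of neighbouring pairs of domains, 4 were within 10000 bases of each other and 42 within 100000. These counts were not compared with those of other regions.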
